A study of Mus musculus with 47 samples.

Results

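The principal neurons of the striatum, the medium spiny neurons, were followed through 9 genes in RNA sequencing of the brain of 3xTg mice, out of 55416 genes in the tables. The 9 were named as a set of striatal genes, with earlier results of these data known, and all 9 were found by symbol and were counted in every library. Medium spiny neurons make up most of the striatum and fall into direct-pathway cells, which carry the dopamine D1 receptor, and indirect-pathway cells, which carry the D2 receptor together with the adenosine receptor that Adora2a encodes. D1 receptors and this adenosine receptor raise cAMP in these cells and D2 receptors lower it, and a set of phosphodiesterases, regulators of G proteins and inhibitors of phosphatases set how long that signal lasts. Adora2a, Drd1 and Drd2 encode these receptors. Rgs9 encodes a regulator that shortens receptor signaling, Ppp1r1b encodes the phosphatase inhibitor DARPP-32, Pde10a encodes a cyclic nucleotide phosphodiesterase and Rasd2 encodes the small G protein Rhes. Tac1 and Penk encode the precursors of substance P and enkephalin, the peptides of the direct and the indirect pathway.

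The 3xTg mice carry human APP, tau and presenilin genes with mutations of familial Alzheimer's disease, and both the Control and the restricted groups carried all of these. Mice of both sexes ate an amino acid-defined Control diet or a diet restricted in isoleucine (IleR), leucine (LeuR) or valine (ValR) from 6 months of age for 9 months. The libraries analysed came from 14 males (4 Control, 3 IleR, 3 LeuR and 4 ValR) and 23 females (6 Control, 5 IleR, 6 LeuR and 6 ValR), of 47 that the labels list. The 10 male libraries that remain were not used here. Nothing in the labels says which animals shared a cage or a day, so the tests measure the spread between these libraries. The tissue is labelled brain, while the sources name the whole brain, the left hemisphere and, in 1 protocol, the liver, and Snap25, a synaptic gene, was at 797 CPM (counts per library scaled to a common total) or more in every male library and at 1031 CPM or more in every female library. Levels below are CPM with TMM factors unless stated otherwise. In bulk RNA of this kind, fewer medium spiny neurons in the piece and less RNA of these genes per neuron cannot be told apart.

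Library depth was 12682663 to 25722301 counts in males and 10672583 to 21370968 in females. Xist and 4 genes of the Y chromosome (Uty, Kdm5d, Eif2s3y and Ddx3y) were at levels that match the labelled sex in all 37 libraries. The libraries differed in which brain regions they held. A hindbrain score was taken as the average of the mean log2 CPM of 7 cerebellar genes and that of 8 genes of the brainstem and the spinal cord, less that of 8 cortical and hippocampal genes. In males it was −7.85 to −5.14 in Control, 2.02 to 4.17 in IleR, −3.39 to 4.15 in LeuR and 3.89 to 5.46 in ValR, so every Control library lay below every library of the other diets. Summed over 7 genes, the cerebellar level was 6.45 to 21.5 CPM in male Control libraries against 852 to 2390 in IleR, 14.3 to 799 in LeuR and 891 to 3258 in ValR. Hoxa5 and Hoxc4 of the brainstem list were at 0 in all 4 male Control libraries and above 0 in every IleR and ValR library. Tbr1, a transcription factor of cortical neurons, was at 61.5 to 173 CPM in male Control and at 0.592 to 2.36 in IleR, 0.537 to 17.8 in LeuR and 0.36 to 0.944 in ValR. In females the scores of the diets overlapped, from −7.19 to 0.01 in Control, −7.36 to −0.76 in IleR, −7.04 to 4.08 in LeuR and −6.87 to 0.58 in ValR.

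The sequence upstream of the genes was read from RefSeq for the build GRCm38.p6, which held 6 of the 9 genes in 8 windows (Drd1, Drd2, Rgs9, Pde10a, Tac1 and Rasd2; Adora2a, Ppp1r1b and Penk had no entry). The 250 bases before the start were searched on both strands for TGACG, the core of the cAMP response element, which is the site that cAMP-activated CREB proteins bind. It was found in 17.8% of the 32851 windows of this length in the table and, among these 6 genes, in Tac1 alone, with 2 matches. These windows end at the RefSeq starts, and some lie within the genes as GENCODE M21 draws them: both windows of Pde10a and 1 of Drd1 did so over their whole length, that of Tac1 over 182 of its bases, with 1 of its 2 matches, and the other of Drd1 over 47. The parts that lie before the GENCODE gene are shown 5′ to 3′ for Tac1 (chr6:7554811-7554878, plus strand), Drd1 (chr13:54055706-54055908, minus strand) and Drd2 (chr9:49340153-49340402, plus strand), because Tac1 held the core and the receptor genes mark the pathways, and capitals mark the core on either strand.
Tac1: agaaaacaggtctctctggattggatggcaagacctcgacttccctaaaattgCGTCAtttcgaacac
Drd1: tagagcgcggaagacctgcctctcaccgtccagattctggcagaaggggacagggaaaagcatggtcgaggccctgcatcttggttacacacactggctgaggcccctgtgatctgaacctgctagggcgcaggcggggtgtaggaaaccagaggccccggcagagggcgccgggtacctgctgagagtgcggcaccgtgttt
Drd2: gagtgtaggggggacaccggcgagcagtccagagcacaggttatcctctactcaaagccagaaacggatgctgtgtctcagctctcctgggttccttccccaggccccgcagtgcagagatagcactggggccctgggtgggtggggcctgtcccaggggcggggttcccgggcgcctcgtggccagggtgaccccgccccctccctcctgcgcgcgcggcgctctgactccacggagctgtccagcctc
The core is absent from the stretches of the 2 receptor genes printed, which describes these letters only.

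Per kilobase of exon, the median level over all 37 libraries was highest for Penk at 41.9 CPM per kb and Ppp1r1b at 37.6, followed by Rasd2 at 16.3, Pde10a at 10.8, Drd2 at 5.59, Tac1 at 5.15, Drd1 at 2.61, Rgs9 at 2.02 and Adora2a at 1.11. The order differed with the sexes apart. Penk was first in males (42.0 against 33.5 for Ppp1r1b) and Ppp1r1b in females (47.8 against 38.9). Rgs9 was above Drd1 in males (1.52 against 0.423) and in females (4.79 against 3.33). In males Drd1 was also below Adora2a (0.835), and in females Tac1 was above Drd2 (6.20 against 5.80). Within single libraries the order of neighbours was not fixed. Ppp1r1b was above Rasd2 in 34 of the 37 libraries, Rasd2 above Pde10a in 30 and Pde10a above Drd2 in 35. The other neighbours changed places more often, as Penk was above Ppp1r1b in 14 libraries, Drd2 above Tac1 in 22, Tac1 above Drd1 in 23, Drd1 above Rgs9 in 10 and Rgs9 above Adora2a in 24. The spread between libraries was wide for all 9 and differed between them. In females the highest library exceeded the lowest 416-fold for Drd1, 113-fold for Adora2a, 64.8-fold for Rgs9 and 51.8-fold for Drd2, but 9.12-fold for Pde10a and 14.7-fold for Rasd2. In males the same quotient was 663 for Drd1 and 69.7 for Adora2a against 7.11 for Penk and 11 for Pde10a. Ppp1r1b and Penk overlap exons of antisense genes (1700003D09Rik and A830012C17Rik), and the strand setting of the counting is not given in the sources used here, so their levels may include reads of these partners.

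The first question was whether restriction of each amino acid moved these genes in males. Among the receptors, Adora2a (chr10:75316877-75334784, plus strand) was at 93.2, 7.57, 2.23 and 32.6 CPM in the Control libraries. It was at 1.8, 1.81 and 1.42 in IleR, at 3.13, 2.69 and 9.48 in LeuR and at 2.38, 2.43, 3.18 and 1.34 in ValR. Every IleR library was below every Control library, while the lowest Control library lay within the range of ValR and below all LeuR libraries. Adora2a fell by 4.33 ± 1.03 (SE) on the log2 scale in IleR (adjusted p = 0.0126) and by 3.85 ± 0.89 in ValR (adjusted p = 0.00692; edgeR's quasi-likelihood test, adjusted over all genes after Benjamini-Hochberg, as for every adjusted p of single genes). In LeuR its difference of −2.72 ± 0.93 did not pass (adjusted p = 0.0777, edgeR).

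Drd1 (chr13:54051183-54055705, minus strand) was at 78.2, 9.47, 6.62 and 25.8 CPM in Control, 1.68, 1.39 and 1.13 in IleR, 0.224, 4 and 13.5 in LeuR and 0.504, 0.944, 0.118 and 0.828 in ValR. All IleR and all ValR libraries were below all Control libraries, and 1 LeuR library lay among the Control libraries. These ValR levels rest on 7, 14, 2 and 13 counts. Drd1 fell by 4.42 ± 1.12 in IleR (adjusted p = 0.018, edgeR) and by 5.65 ± 1.10 in ValR (adjusted p = 0.00247, edgeR), and its difference in LeuR was −2.34 ± 0.98 (adjusted p = 0.145, edgeR). Drd2 (chr9:49340627-49408177, plus strand) was at 76.2, 3.55, 18.1 and 23.9 CPM in Control, 14.8, 14.2 and 9.36 in IleR, 13.3, 7.53 and 21.4 in LeuR and 10.2, 14.6, 5.43 and 4.91 in ValR. The lowest of all 14 libraries for Drd2 was a Control library, and the groups overlapped in each comparison. Its differences were −1.24 ± 0.72 in IleR, −1.10 ± 0.72 in LeuR and −1.79 ± 0.67 in ValR, with adjusted p of 0.276, 0.349 and 0.0704 in edgeR. Without Control library 1 they were −0.24, −0.11 and −0.79. Drd2 passed in ValR in DESeq2 (adjusted p = 0.0449), and in edgeR without Control library 3 (−2.16, adjusted p = 0.0138).

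Of the genes acting below the receptors, Rgs9 (chr11:109225355-109298129, minus strand) was at 173, 21.3, 12.9 and 57.6 CPM in Control, 8.88, 13.2 and 6.93 in IleR, 10.3, 7.99 and 41.8 in LeuR and 8.49, 9.03, 3.77 and 5.16 in ValR. All ValR libraries were below all Control libraries, and 1 IleR library was just above the lowest Control library. Rgs9 fell by 2.76 ± 0.83 in IleR (adjusted p = 0.0394, edgeR) and by 3.33 ± 0.77 in ValR (adjusted p = 0.00722, edgeR), with a difference of −1.72 ± 0.79 in LeuR (adjusted p = 0.18, edgeR).

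Rasd2 (chr8:75213944-75224113, plus strand) was at 241, 70.2, 47.7 and 112 CPM in Control, 41.5, 36.9 and 30.9 in IleR, 30.2, 26.2 and 74.4 in LeuR and 25.7, 39.2, 20.6 and 31.7 in ValR. No IleR or ValR library reached the lowest Control library, and 1 LeuR library exceeded it and the next. Rasd2 fell by 1.69 ± 0.50 in IleR (adjusted p = 0.0361, edgeR) and by 2.00 ± 0.46 in ValR (adjusted p = 0.0065, edgeR), and in LeuR its difference was −1.43 ± 0.49 (adjusted p = 0.0816, edgeR). Pde10a (chr17:8525372-8986648, plus strand), at 67.2 to 678 CPM in Control, and Ppp1r1b (chr11:98348404-98357796, plus strand), at 39.4 to 490, did not pass in any diet in edgeR. Their differences lay between −1.68 and −0.90, and the lowest Control library held less Ppp1r1b than each of the 10 libraries of the other diets. Without that library, Control library 4, Ppp1r1b passed in IleR, LeuR and ValR (−1.49, −1.82 and −1.24; adjusted p = 0.035, 0.0158 and 0.042, edgeR) and Pde10a in LeuR and ValR, where it fell by 2.00 and 1.56 (adjusted p = 0.0135 and 0.0191, edgeR). Without Control library 1 the differences in IleR, LeuR and ValR were −0.28, −0.61 and −0.04 for Ppp1r1b and −0.11, −0.69 and −0.26 for Pde10a.

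The peptide precursors did not pass in any diet in edgeR, DESeq2 or limma voom. Penk (chr4:4133531-4138819, minus strand) was at 215, 30.3, 30.4 and 72.5 CPM in Control, 53.3, 68.6 and 50.2 in IleR, 98.3, 43.3 and 83.5 in LeuR and 99.2, 117, 68.5 and 60.8 in ValR. Tac1 (chr6:7554879-7565834, plus strand) was at 46.2, 5.27, 29.3 and 14.2 in Control, 17.5, 21.5 and 13.8 in IleR, 15.1, 6.69 and 58.7 in LeuR and 10.7, 17.5, 5.37 and 5.54 in ValR. For both genes the other diets lay inside the range of Control except the highest LeuR library of Tac1. Penk differed from Control by −0.60, −0.21 and −0.01 on the log2 scale in IleR, LeuR and ValR, and Tac1 by −0.43, 0.18 and −1.28, with adjusted p from 0.202 to 0.99 in edgeR. Both peptides are also made by neurons outside the striatum, enkephalin and substance P neurons of the brainstem among them.

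**Figure D1:**
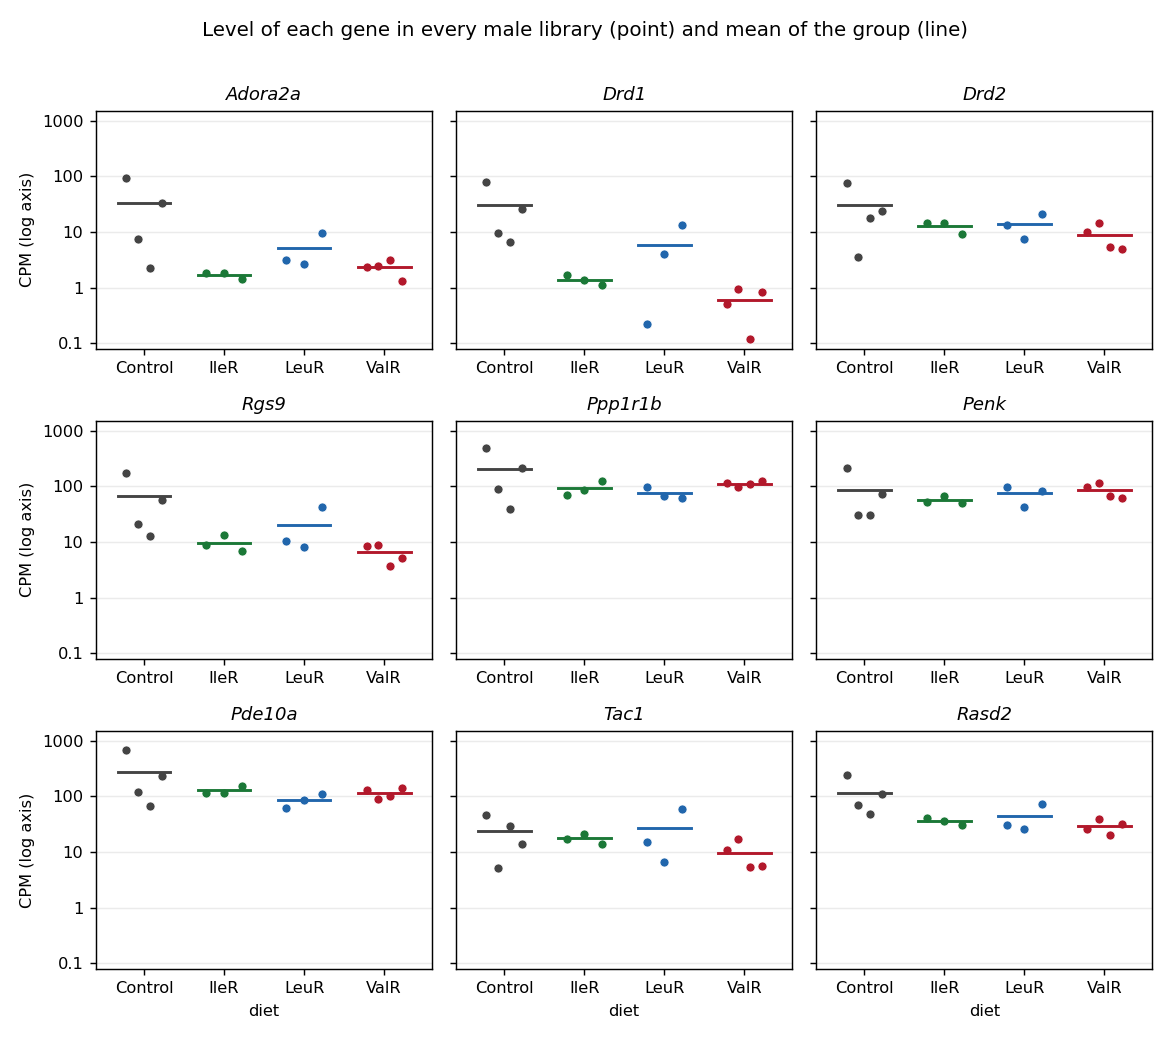
Level of each of the 9 genes in the male libraries, in CPM on a log axis, by diet; points are libraries and lines are group means. The 3 IleR and 4 ValR libraries of Drd1 lie below all 4 Control libraries (6.62 CPM or more), whereas the Penk libraries of the other diets lie within the Control range of 30.3 to 215 CPM.

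In counts, 4 of the 9 genes were called lower and 0 higher in IleR, where 8.68% of the 22197 genes tested were called lower and 6.63% higher, and the median log2 fold change was −1.24 for the 9 against 0.04 for all genes. In LeuR 0 of 9 were called, where 6.33% of all genes were called lower and 3.81% higher, and the medians were −1.48 and 0.05. At an unadjusted p under 0.05, edgeR gave 6 of the 9 in LeuR, and after adjustment DESeq2 called 4 lower (Adora2a, Pde10a, Rasd2 and Ppp1r1b; 9.53% of all genes) and limma voom 0 (6.95% of all genes). In ValR the same 4 genes as in IleR (Adora2a, Drd1, Rgs9 and Rasd2) were called lower and 0 higher (5 in DESeq2, with Drd2, where 14.2% of all genes were called lower), where 12.4% of all genes were called lower and 11.1% higher, and the medians were −1.79 and 0.03. These comparisons share the 4 Control libraries. Genes with every library of the diet below every Control library numbered 3 of 9 in IleR (14.5% of all genes), 0 of 9 in LeuR (9.48%) and 3 of 9 in ValR (13.6%).

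The calls in males depended on the tool and on single libraries. limma voom, the tool of the study, called 0 of the 9 lower in IleR, where it called 9.3% of all genes lower, and 2 (Drd1 and Rasd2) in ValR, where it called 12.3%. At an unadjusted p under 0.05 it gave 3 of the 9 in IleR, and its median log2 fold change of the 9 there was −0.60. Without Control library 1, which was highest of the 14 for 8 of the 9 genes, edgeR called 1 of the 9 lower in IleR (5.97% of all genes), and the changes of Rgs9 and Rasd2 there were −1.66 and −1.07, and that of Rgs9 in ValR −2.22. The median log2 fold change of the 9 was then −0.28 in IleR, −0.61 in LeuR and −0.79 in ValR. Without IleR library 14 or 17 it called 0 in IleR (4.93% and 5.22% of all genes), with 4 of the 9 at an unadjusted p under 0.05 in each case. Adora2a was then at −4.39 and −4.24 and Drd1 at −4.41 and −4.31, with adjusted p of 0.0565 to 0.0765 in edgeR. Without IleR library 13 it called 1 (6.54%), without Control library 5 it called 2 (6.95%) and without ValR library 7 it called 2 (7.65%). Without Control library 4 the count was 5 in IleR (10.7%) and 4 in LeuR (9.75%). Without LeuR library 21, whose hindbrain score of −3.39 was nearest to Control, it was 2 in LeuR (7.66%). In ValR the count was 4 without Control library 1 (9.55% of all genes lower) and 6 without Control library 4 (13.1%). With a fit of only the IleR and Control libraries, 2 of the 9 were called lower (9.19%). With the hindbrain score as a covariate edgeR called 0 of the 9 in any diet and 0% of all genes lower, with 0 of the 9 at an unadjusted p under 0.05, and the standard errors widened. Drd1 was then at 1.97 ± 1.99 in IleR and 1.66 ± 2.27 in ValR, with adjusted p of 0.793 and 0.838 in edgeR. As the score separates male Control from every other male library, diet and the regions held by the library cannot be told apart in males.

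**Figure D2:**
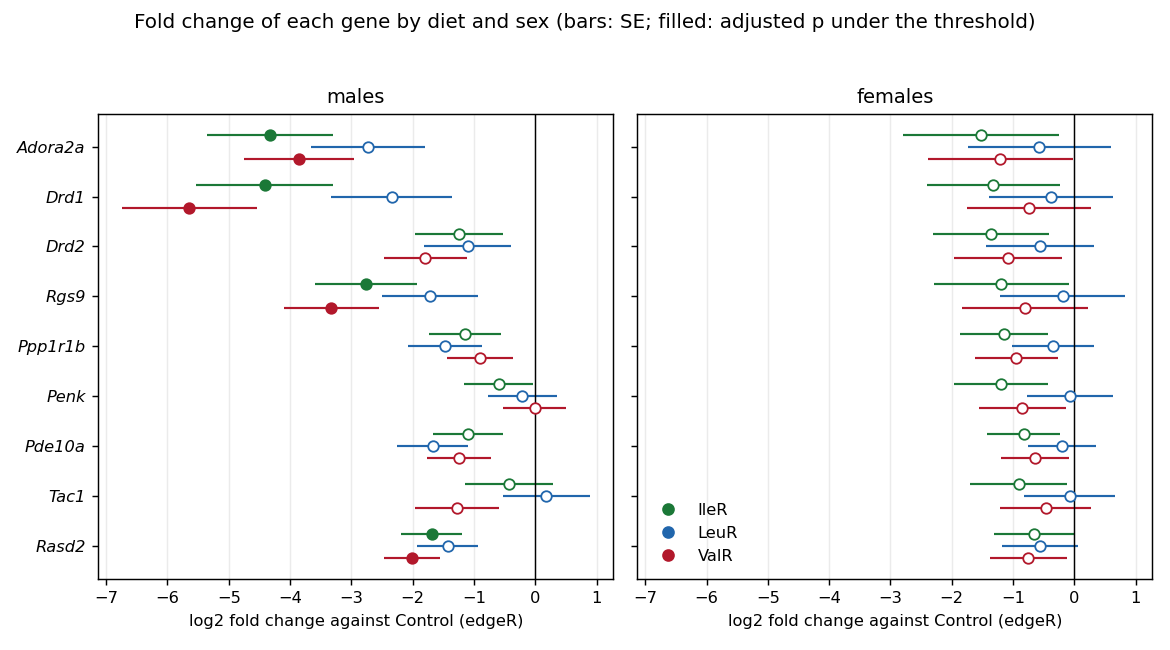
Log2 fold change of each gene against Control (edgeR) by diet, males on the left and females on the right; bars are standard errors and filled points passed the adjusted threshold of 0.05. Filled points occur for Adora2a, Drd1, Rgs9 and Rasd2 in male IleR and ValR, and all female points are open.

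The restricted diets were also compared with each other in males. edgeR called 0 of the 9 between LeuR and IleR and between ValR and IleR, where it called 0% of all genes, with 0 of the 9 at an unadjusted p under 0.05 by edgeR, DESeq2 or limma voom. Over all genes, 2512 and 628 were at an unadjusted p under 0.05 in edgeR, DESeq2 called 108 and 7, and limma voom 0 and 0. Between ValR and LeuR 0 of the 9 were called, where 2.75% of all genes were called. Drd1 was the 1 gene at an unadjusted p under 0.05 there, with −3.30 ± 1.11 in ValR relative to LeuR (adjusted p = 0.0982 in edgeR and 0.0275 in DESeq2, which called 11.2% of all genes).

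In females the levels of the 4 diets lay across one another for all 9 genes. Adora2a was at 1.8 to 162 CPM in Control (median 31.8), 1.43 to 120 in LeuR (median 12.6) and 1.71 to 81.1 in ValR (median 9.14), and at 6.35, 36.3, 22.9, 1.69 and 22.5 in the 5 IleR libraries. Drd1 was at 2.32 to 128 in Control (median 34.9), 0.309 to 101 in LeuR (median 19.4) and 5.02 to 89.7 in ValR (median 11.1), and at 11.3, 36.6, 24.1, 2.67 and 17 in IleR. For both genes every diet held libraries at a few CPM and libraries at 36.3 CPM or more, and the groups overlapped. Drd2 was at 2.42 to 125 in Control (median 28.6), 3.4 to 78.8 in LeuR (median 14.2), 3.49 to 66.6 in ValR (median 11.5) and 4.92, 29.5, 22.7, 8.44 and 18.6 in IleR.

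The other 6 genes also varied in females, with the highest library above the lowest from 9.12-fold for Pde10a to 64.8-fold for Rgs9. Rgs9 ranged from 3.6 to 233 CPM in Control, Ppp1r1b from 48.2 to 936, Penk from 30.2 to 451, Pde10a from 80.3 to 732, Tac1 from 6.16 to 90.8 and Rasd2 from 28.9 to 350. Within Control, libraries 25, 26 and 28 were the upper 3 for each of the 9 genes, and libraries 27, 29 and 30 the lower 3. The hindbrain scores were −7.19 to −6.82 in the former and −3.30, −2.02 and 0.01 in the latter. Of the 11 female libraries with a score below the median of the 23, 8 had a mean rank over the 9 genes above the median, against 3 of the 11 with a score above it. As examples of low scores with high levels, LeuR library 44 had a score of −7.04 and a mean rank of 19.7, where 1 is the lowest level, and of a high score with low levels, ValR library 36 had 0.58 and 3.89. Other libraries went the other way. IleR library 38 had the lowest female score (−7.36) and a mean rank of 7.67, ValR library 34 had −5.86 and 6.11, LeuR library 47 −6.35 and 8, and IleR library 40 −2.71 and 14.7. Control library 25 was the highest of all 23 for 8 of the 9 genes, and LeuR library 43 for Tac1. In males, 3 of the 7 libraries with a score below the male median had a mean rank above the median, against 2 of the 7 above it. Male Control library 3, with the lowest male score of −7.85, had a mean rank of 6.89 among 14.

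**Figure D3:**
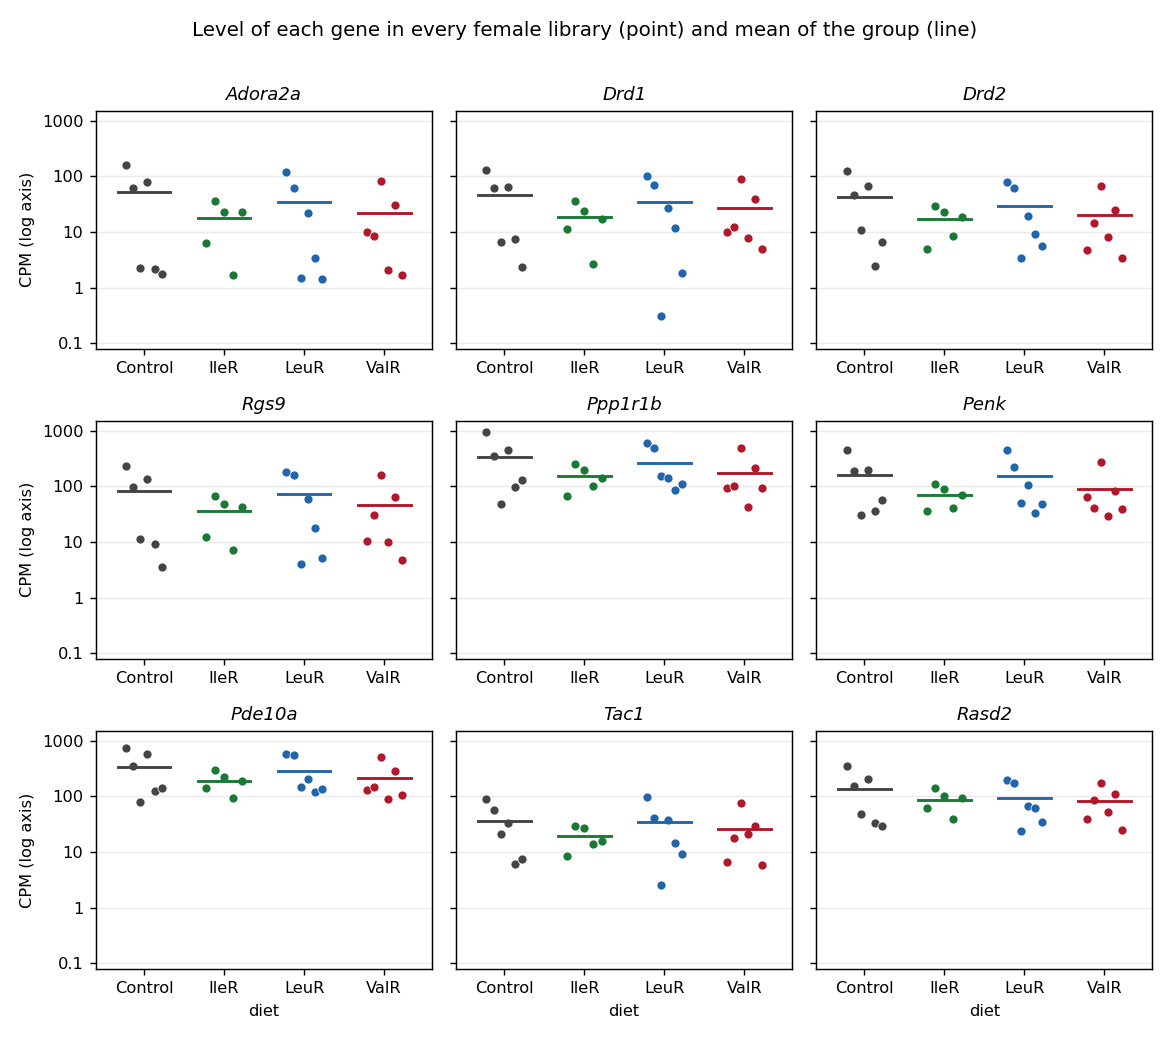
Level of each of the 9 genes in the female libraries, in CPM on a log axis, by diet; points are libraries and lines are group means. Each diet spans from low to high libraries, as for Drd1 from 2.32 to 128 CPM in Control and from 0.309 to 101 in LeuR.

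No gene of the 9 was called in females. edgeR called 0 of 9 in IleR, LeuR and ValR, as it called 0% of the 20344 genes tested, with 0 of the 9 at an unadjusted p under 0.05 in each diet, and the counts were also 0 in DESeq2 and limma voom. Over all genes, 577, 820 and 777 were at an unadjusted p under 0.05 in edgeR, DESeq2 called 8, 1 and 0, and limma voom called 1, 0 and 0. The 27 estimates were all below 0, from −1.53 to −0.66 in IleR, −0.57 to −0.07 in LeuR and −1.21 to −0.46 in ValR, with standard errors of 0.56 to 1.27, and they share the 6 Control libraries. For Drd1 the differences were −1.32 ± 1.09, −0.38 ± 1.01 and −0.74 ± 1.01. No gene of the 9 had its groups apart in any female comparison (0.143%, 0.0836% and 0.0541% of all genes lay wholly below Control in IleR, LeuR and ValR). Between the restricted diets edgeR called 0 of the 9 in females and 0% of all genes, and 0 of the 9 were at an unadjusted p under 0.05 by any of the 3 tools. The estimates there lay between −0.77 and 1.12. Over all genes, edgeR gave 1250, 847 and 1014 at an unadjusted p under 0.05 for LeuR against IleR, ValR against IleR and ValR against LeuR, DESeq2 called 19, 18 and 2, and limma voom called 0 in each.

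Whether the effect of a diet differed between the sexes was tested as an interaction over all 37 libraries. edgeR called 0 of the 9 for IleR (0.0979% of 22465 genes called), LeuR (0.00445%) and ValR (4.25%). At an unadjusted p under 0.05 edgeR gave 0, 0 and 1, DESeq2 1, 0 and 1, in each case Drd1, and limma voom 0 in each. The Drd1 change in ValR was 4.91 ± 1.77 lower on the log2 scale in males than in females (a difference of −4.91; adjusted p = 0.0876 in edgeR and 0.0195 in DESeq2, which called 10.4% of all genes). Of the 9 estimates of this difference in ValR 7 were below 0, with a median of −0.82, and those of Penk and Ppp1r1b were 0.83 and 0.03 (adjusted p = 0.644 and 0.993, edgeR).

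**Figure D4:**
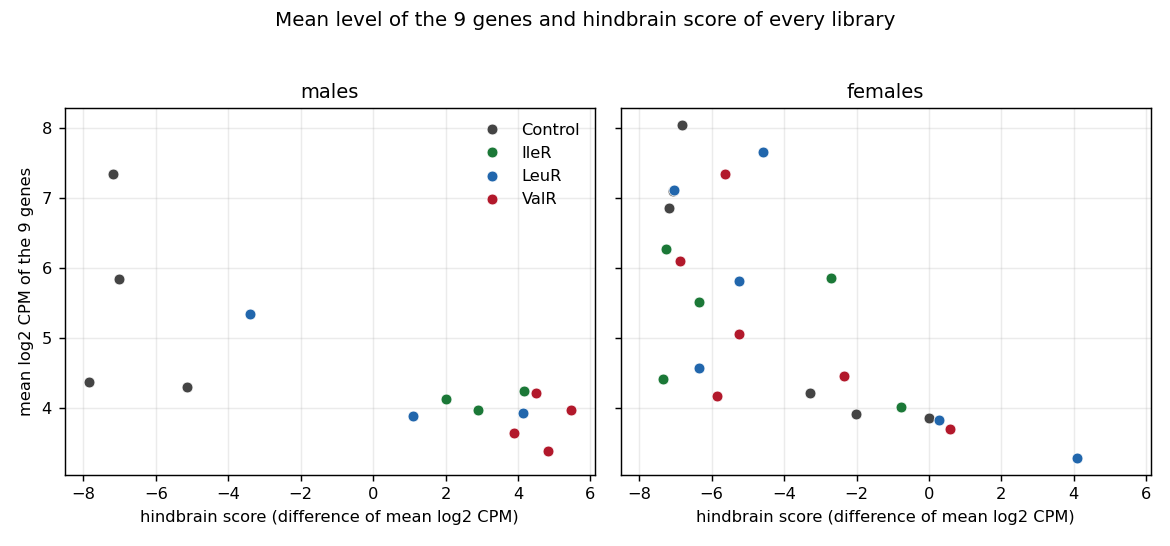
Mean log2 CPM of the 9 genes against the hindbrain score of each library, males on the left and females on the right, coloured by diet. Male Control libraries lie at scores of −7.85 to −5.14 and the IleR and ValR libraries at 2.02 to 5.46, whereas the female diets are mixed along the axis.

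Direct- and indirect-pathway members were also set against each other as 2 ratios within each library, Drd1 to Drd2 and Tac1 to Penk. These are ratios of single genes and not a measure of the pathways, since the indirect-pathway genes Adora2a (−3.85), Gpr6 (−7.22) and Sp9 (−3.95) were called lower in male ValR beside the direct-pathway genes Drd1 (−5.65), Chrm4 (−4.51) and Pdyn (−2.64). The part of RNA from cells outside the striatum in either ratio was not tested. The prior count of 2 added to each library draws ratios of few counts towards 0, and with a prior count of 0.5 the difference of Drd1 to Drd2 in male ValR given below was −4.00. In males the log2 ratio of Drd1 to Drd2 was 0.04, 1.39, −1.43 and 0.11 in Control. It was −3.06, −3.25 and −2.93 in IleR, −5.29, −0.89 and −0.66 in LeuR and −4.06, −3.80, −4.56 and −2.41 in ValR. All IleR and ValR libraries lay below all Control libraries. The mean was 0.02 ± 1.15 (SD) in Control and −3.71 ± 0.92 in ValR, a difference of −3.73 (n = 4 and 4, two-sided exact permutation p = 0.0286, 0.171 after Benjamini-Hochberg adjustment over 12 comparisons). In IleR the difference was −3.10 with an exact permutation p of 0.0571, the smallest that 3 against 4 libraries can give (0.229 adjusted), and in LeuR −2.31 (exact permutation p = 0.171, 0.514 adjusted), which was −0.80 without LeuR library 19.

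The log2 ratio of Tac1 to Penk was −3.20, −2.73, −3.65 and −3.43 in male ValR and −2.22, −2.50, −0.06 and −2.34 in male Control. All ValR libraries were below all Control libraries, the closest by −2.73 against −2.50. The difference of the means was −1.47 (exact permutation p = 0.0286, 0.171 adjusted), against 0.07 in IleR and −0.18 in LeuR. 0.0286 is the smallest p that 4 against 4 libraries can give, and no ratio in either sex passed after adjustment.

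In females the mean log2 ratio of Drd1 to Drd2 was −0.02 ± 1.03 in Control, −0.04 ± 1.01 in IleR, −0.53 ± 1.44 in LeuR and 0.39 ± 0.50 in ValR, and the adjusted exact permutation p-values of both ratios were 0.831 or more. The lowest female ratio, −3.02 in LeuR, belonged to library 45, with a hindbrain score of 4.08, the highest in females. ValR library 36, with the next highest score of 0.58, had a ratio of 0.51.

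**Figure D5:**
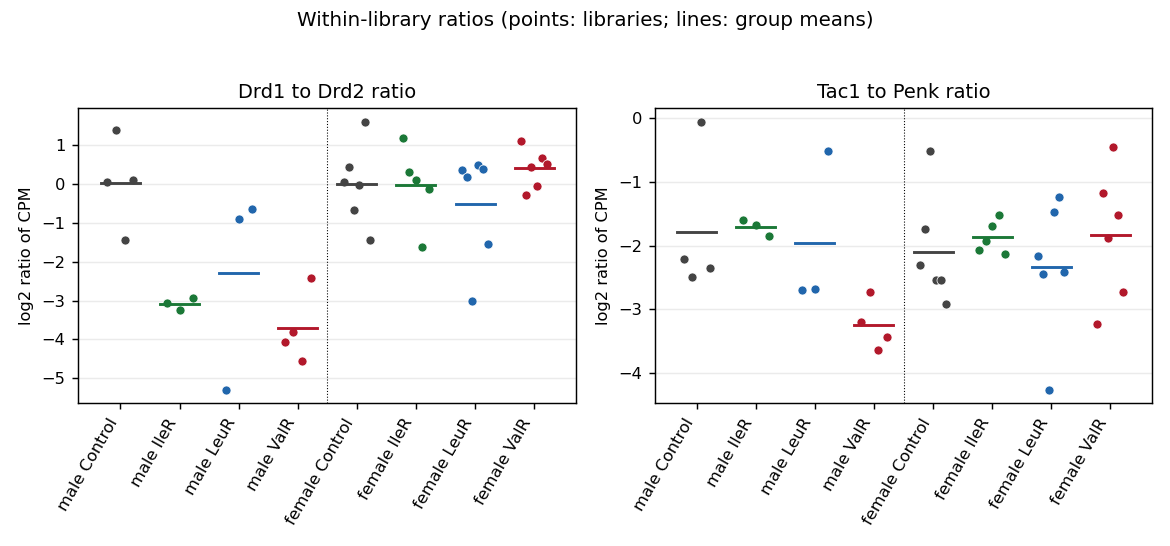
Log2 ratio of CPM within each library for Drd1 to Drd2 and Tac1 to Penk, by sex and diet; points are libraries and lines are group means. Male IleR (−3.25 to −2.93) and ValR (−4.56 to −2.41) lie below male Control (−1.43 to 1.39) for Drd1 to Drd2, and the female diets overlap.

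Within each diet the 9 genes moved together from library to library. After the mean of each diet was taken off, the median Pearson correlation of the 36 pairs was 0.907 over 23 female libraries and 0.728 over 14 male libraries, as a description, since the libraries share the piece of brain and its depth. Rgs9 and Rasd2 were the closest pair in both sexes (0.978 and 0.954), and Ppp1r1b and Tac1 the most distant (0.701 and 0.132). Among genes outside the 9, those most like their mean pattern in females were Adcy5 (r = 0.973, Spearman rho = 0.972), Gnal (0.970, 0.956), Pde7b (0.968, 0.965), Gpr6 (0.967, 0.946) and Rarb (0.966, 0.847), of 13887 compared. In males they were Zfp462 (0.932, 0.741), Ppp1r2 (0.919, 0.824), Gnal (0.915, 0.670), Adcy5 (0.912, 0.697) and Pde7b (0.907, 0.591), of 13996. Adcy5, Gnal and Pde7b stood among the 5 in both sexes.

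Other genes of these neurons were taken from lists, with the calls of edgeR. Of 5 further direct-pathway genes, Chrm4, a muscarinic receptor, was lower in males in IleR (−4.33), LeuR (−2.15) and ValR (−4.51), and Pdyn, the dynorphin precursor, in ValR (−2.64; −2.65 with adjusted p = 0.0542 in IleR). Ebf1, a transcription factor of this list, was higher in IleR (2.35) and ValR (2.94), with adjusted p of 0.00302 and 0.000319 in edgeR. It was at 4.79 to 16.9 CPM in male Control and at 54 to 75.2 in ValR, and it is expressed in many cell types. Isl1 and Slc35d3 passed in no diet. The indirect-pathway genes Gpr6 (−7.22) and Sp9 (−3.95) were lower in ValR, where Gpr6 was at 0 to 0.072 CPM against 0.891 to 15.9 in Control. Their differences were −3.90 and −2.21 in IleR (adjusted p = 0.051 and 0.0718, edgeR) and −1.69 and −0.77 in LeuR (adjusted p = 0.34 and 0.529, edgeR).

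Of 10 genes shared by both kinds of medium spiny neuron, 5 were called lower and 0 higher in male IleR (8.68% of all genes lower), 3 in LeuR (6.33%) and 7 in ValR (12.4%), with medians of the list at −1.94, −1.08 and −2.08. Bcl11b and Foxp1, transcription factors, and Lrrc10b were lower in all 3 diets, at −2.98, −2.13 and −3.77 for Bcl11b, −1.90, −1.75 and −2.03 for Foxp1 and −4.10, −2.86 and −5.07 for Lrrc10b. Dclk3 passed in IleR and ValR, Rxrg and Meis2 in ValR. Scn4b, a sodium channel subunit, was at −0.11, 0.06 and 0.22 and Syndig1l at −0.21, −0.40 and −0.55, and Rarb passed in no diet either (−1.10 to −0.82). In which cells the genes of this list and the next were lower was not tested. The 8 cortical and hippocampal genes were also lower in these libraries, with 6, 5 and 7 called in IleR, LeuR and ValR.

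Of 17 genes of dopamine and cAMP signaling, 9 were called lower and 0 higher in male IleR (8.68% of all genes lower), 4 in LeuR (6.33%) and 12 in ValR (12.4%), with list medians of −0.69, −0.65 and −0.76. The phosphoproteins Arpp19 and Arpp21 and the calcineurin subunit Ppp3ca were lower in all 3 diets, by 2.06, 1.75 and 2.02 on the log2 scale for Arpp19. Gng7, Pde1b, Ptpn5, Ppp1ca, Prkar1b and Prkar2b passed in IleR and ValR, with Ptpn5, the striatum-enriched phosphatase STEP, at −1.54 and −1.96. Adcy5 (−1.62), the main adenylyl cyclase of the striatum, Prkacb (−0.58) and Cdk5 (−0.24) passed in ValR, and Rgs7bp (−1.08) in LeuR. Gnal (−0.53, −0.33 and −0.44), the G protein that couples the receptors of Drd1 and Adora2a to adenylyl cyclase, Gnb5, Ppp1cb and Prkaca passed in no diet. In females 0 of the 34 genes on these 4 lists were called in any diet by edgeR, DESeq2 or limma voom, and 1, 1 and 0 were at an unadjusted p under 0.05 in edgeR for IleR, LeuR and ValR.

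Lists of other regions and cells also differed between the male diets, and they stand beside the values above. Over all genes edgeR called 6.63%, 3.81% and 11.1% higher and 8.68%, 6.33% and 12.4% lower in IleR, LeuR and ValR, while DESeq2 called 8.36%, 6.74% and 12.6% higher and limma voom 7.38%, 3.91% and 11%. Of the 7 cerebellar genes 6 were called higher in each of the 3 diets, of the 8 brainstem genes 5, 6 and 6 in IleR, LeuR and ValR, and of the 8 cortical and hippocampal genes 6, 5 and 7 were called lower. The summed level of 4 cholinergic interneuron genes, which mark another neuron of the striatum and also motor neurons, was 2.48 to 23.5 CPM in male Control and 7.82 to 118 in the other diets, and 2 of the 3 tested were called higher in each diet. Of the pan-neuronal genes 1 of 5 was called lower and 1 higher in each diet. Microglial genes were called lower for 2 of 5 in IleR and 4 in ValR, 1 of 5 astrocyte genes was called higher in IleR and in ValR, and 4 of 7 diencephalic genes were called higher in LeuR. The summed diencephalic level was 80.1 to 875 CPM in male LeuR, with a median of 90.5, against 44.5 to 196 in male Control. Only the highest LeuR library thus lay above Control. The summed level of 6 oligodendrocyte genes was 4561 to 9564 CPM in male Control, 10220 to 14940 in IleR, 6433 to 18030 in LeuR and 9514 to 16350 in ValR. edgeR called 0 of these 6 in each diet, with 4, 5 and 3 at an unadjusted p under 0.05 in IleR, LeuR and ValR, and DESeq2 called 1, 2 and 1 higher and limma voom 0. Of 4 blood genes edgeR called 0, with all 4 at an unadjusted p under 0.05 in LeuR (median 1.95), where DESeq2 called 2 higher and limma voom 0, and none in IleR or ValR. Of 6 genes of midbrain dopamine neurons edgeR called 0, with 3, 2 and 1 at an unadjusted p under 0.05, while DESeq2 called 1, 1 and 0 higher and limma voom 1, 0 and 1. Of 5 choroid plexus genes 0 were called or at an unadjusted p under 0.05 by any of the 3 tools. In females the summed cerebellar level ran from 5.71 to 3101 CPM in Control, 4.8 to 1802 in IleR, 4.3 to 2967 in LeuR and 8.73 to 1627 in ValR. Beyond the covariate above, the part of these lists in the levels of the 9 genes was not tested.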

How the data were processed

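RNA of 3xTg mouse brain was sequenced, and the authors deposited expected counts per Ensembl gene and library for each sex, aligned to GRCm38 with no normalization; the aligner is not given in the sources used here. The deposited tables of log2 fold changes and p-values of each diet against Control were not used. Per the methods, outliers were dropped on the basis of a principal component analysis, and the tables hold 37 of the 47 labelled libraries.

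Expected counts were rounded and fitted in R 4.3.3 with edgeR 4.0.16 (TMM normalization, quasi-likelihood test, Benjamini-Hochberg adjustment, threshold 0.05), each sex apart with its 4 diets in 1 model and both sexes in 1 model for the interaction. A gene was kept when some diet group had 1 count or more of it in each of its libraries, 22197 of 55416 in males and 20344 in females. The standard errors given for edgeR were worked back as the size of the log2 fold change over the square root of the F statistic of its test. They are approximate, above all for genes of few counts. limma voom (limma 3.58.1) and DESeq2 1.42.0 were alternatives. Ratios used log2 CPM with a prior count of 2 and an exact permutation test (scipy 1.17.1). Symbols, coordinates and exon lengths came from GENCODE M21 on GRCm38. No 2 libraries of a group agreed within sampling noise (73 pairs, lowest chi-square per degree of freedom 8.43).

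The members and lists were chosen with earlier results of these data known. The text names the 9 members, the genes of the 4 medium spiny neuron and signaling lists, the 2 most abundant genes of other lists, the 5 genes most like the members in each sex and the genes used to check sex; Hoxa5 and Hoxc4 were named after their values were seen, and some genes of these lists, counted with their lists, are not reported here by name. Of the lists, Gpr52 was not matched and is not counted. The edgeR fit was tested on simulated counts, where of 100 genes changed by 1.5 on the log2 scale 82% were recovered for IleR and for LeuR and 94% for ValR in males, among 21390, 21396 and 21403 genes, and 81%, 89% and 87% for IleR, LeuR and ValR in females, among 19808, 19818 and 19843. The share of false calls was 3.76%, 6.88% and 5.42% in males, over the threshold of 5% for LeuR and ValR, and 3.76%, 2.60% and 3.61% in females. The changed genes were drawn only from genes above a floor in mean count. Each gene was drawn independently of the others, so differences between libraries in the regions held were not simulated. These recoveries are therefore not a measure of power for the 9 genes.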

Additional observations from a re-analysis of the deposited data

Results flagged for a closer look

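In 5 of 66 groups of 4 or more libraries, 1 library lay apart from the rest of its group by Dixon's criterion. For independent groups of normal values chance alone gives about 1 in 20. The groups here hold the same libraries over genes that moved together, so that rate does not apply directly. ValR library 33 was the highest female ValR library for Adora2a (81.1 CPM), Drd2 (66.6 CPM), Penk (274 CPM) and Tac1 (74.7 CPM). Its hindbrain score was −5.64, within the range of the other female ValR libraries. In male Control, library 4 had the highest log2 ratio of Tac1 to Penk (−0.0551), against −2.50 to −2.22 in the other 3. The same library held the least Ppp1r1b of all 14 male libraries.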

How the results depend on the processing

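No paired analysis was possible because each library carries its own number and no number is shared between groups. Depth limits Drd1 most, at 2 to 14 counts in male ValR libraries.

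The number of the 9 genes called lower in male IleR was 4, and it was 0 with limma voom, 0 with the hindbrain covariate, 2 with only the groups compared (9.19% of all genes lower) and 0 to 5 without 1 library. In male LeuR it was 0, 4 with DESeq2 and 0 to 4 without 1 library. In male ValR it was 4, 5 with DESeq2, 2 with limma voom and 0 with the hindbrain covariate, and it was between 4 (9.55% of all genes without Control library 1) and 6 (13.1% without Control library 4) without 1 library. DESeq2 called 1 gene, Drd1, between ValR and LeuR in males and 1, Drd1, for the sex difference in ValR. In females the counts were 0 under every alternative run. RLE normalization, filterByExpr and no filter left the counts against Control as they were or within 1.5 times.

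With the hindbrain covariate the sign turned in male IleR for Drd1 (1.97), Rgs9 (0.0206), Pde10a (0.42), Tac1 (1.40) and Rasd2 (0.37), in LeuR for Drd1 (1.43), Rgs9 (0.0466) and Rasd2 (0.0077), in ValR for Drd1 (1.66), Pde10a (0.52), Tac1 (0.84) and Rasd2 (0.38), and for Drd1 between ValR and LeuR (0.23) and between the sexes (0.82). In female LeuR it turned for Adora2a (0.54), Drd1 (0.31), Drd2 (0.11), Rgs9 (0.67), Ppp1r1b (0.0881), Penk (0.38), Pde10a (0.19) and Tac1 (0.36). With limma voom it turned for Tac1 in male IleR (0.0267) and Penk in male LeuR (0.22) and ValR (0.44). The cause was not tested.

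Without 1 library, uncalled estimates crossed 0 in male IleR for Penk (−0.88 to 0.37) and Tac1 (−0.76 to 0.12), in LeuR for Penk (−0.50 to 0.76) and Tac1 (−1.09 to 0.73) and in ValR for Penk (−0.30 to 0.96). In females they crossed 0 in LeuR for Adora2a (−1.54 to 0.24), Drd1 (−1.07 to 0.27), Drd2 (−1.14 to 0.13), Pde10a (−0.52 to 0.19), Penk (−0.77 to 0.58), Ppp1r1b (−0.78 to 0.29), Rgs9 (−0.74 to 0.47) and Tac1 (−0.77 to 0.45), and in ValR for Tac1 (−1.14 to 0.0563). The median of the 9 ran from −1.62 to −0.28 in male IleR, −1.88 to −0.61 in male LeuR and −2.17 to −0.79 in male ValR, and in females from −1.43 to −0.52, −0.78 to 0.27 and −1.62 to −0.22. Pde10a ran from −1.42 to −0.11 in male IleR and −1.56 to −0.26 in ValR and reached −0.69 in LeuR, and Ppp1r1b ran from −1.49 to −0.28, −1.82 to −0.61 and −1.24 to −0.04 in IleR, LeuR and ValR. In male LeuR, Adora2a ran from −3.51 to −1.47, Drd1 from −3.93 to −1.24, Rgs9 from −2.83 to −0.61 and Rasd2 from −2.04 to −0.81. Among called values, Rgs9 ran from −3.10 to −1.66 in male IleR and −3.67 to −2.22 in male ValR, and Rasd2 from −1.95 to −1.07 in male IleR, the end nearest 0 being without Control library 1. The ratio of Drd1 to Drd2 in male LeuR ran from −3.12 to −0.80. The male ValR ratios ran from −4.22 to −3.28 (Drd1 to Drd2) and −1.71 to −0.90 (Tac1 to Penk), each with an exact permutation p of 0.0571 without any 1 library, the smallest such groups allow. The ratio of Tac1 to Penk ran from −0.17 to 0.64 in male IleR, −0.91 to 0.39 in male LeuR, 0.0597 to 0.539 in female IleR, −0.46 to 0.15 in female LeuR and −0.0147 to 0.577 in female ValR, and that of Drd1 to Drd2 from −0.32 to 0.38 in female IleR. Without female Control library 27, Tac1 to Penk in IleR reached an exact permutation p of 0.0476.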
